A study of Mus musculus with 4 samples.

Results

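The genes described here make cholesterol and its isoprenoid precursors, control that synthesis through the SREBP transcription factors, or take up, move and export sterols. They form a list of 32 genes, picked by name and role with earlier results of these data known, and 30 of them have a probe set with a single gene symbol among the 19938 genes read in this way, while *Acat2* and *Nr1h2* were not analysed here. For *Idi1*, *Idi2* and *Fdft1*, which have 2 such probe sets each, the one with the higher mean over all arrays was taken. The study asked how the Ikaros transcription factor silences genes in T cells, and the arrays measured the mRNA levels of ILC87-Ik1-ER cells 24 h after the addition of 100 nM 4-hydroxytamoxifen (4OHT, 2 arrays) or of the vehicle, ethanol (EtOH, 2 arrays). ILC87 is a single T-cell line without Ikaros, which came from the thymic tumour of a mouse with floxed Ikaros alleles and an Lck-cre transgene, active in the T-cell lineage. The labels give its strain as C57BL/6, while the study's methods describe such mice as of a mixed background of which C57BL/6 is 1 part. Cells of both treatments carry the MigR1:Ik1-ER retrovirus, which encodes full-length Ikaros-1 fused to the hormone-binding part of an oestrogen receptor, followed by an IRES and GFP, and they were sorted for GFP. 4OHT brings the fusion protein into the nucleus. No array of 4OHT-treated cells without Ik1-ER was analysed here, so that an effect of 4OHT itself and one of nuclear Ikaros cannot be told apart.

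Cholesterol synthesis starts from acetyl-CoA and passes through mevalonate, the isoprenoid diphosphates and squalene to lanosterol, which a series of enzymes turns into cholesterol. When sterols are scarce in the endoplasmic reticulum, SCAP escorts the SREBP proteins to the Golgi, where they are cut and released as transcription factors that raise most of these enzymes. When sterols are plentiful, INSIG proteins hold SCAP back, and oxysterols activate the LXR receptors, which raise exporters such as ABCA1 and ABCG1 and the ubiquitin ligase MYLIP. Activated and dividing T cells are known to need sterol synthesis for new membranes. EBP, one of the late enzymes, is also known as part of a cellular site that binds tamoxifen.

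Promoter windows of RefSeq (build GRCm38.p6, 250 bases before to 50 after the start of the gene) were found for 24 of the 30 measured genes, and those of 4 are printed. *Idi2* and *Idi1* are a pair of isomerase genes on chromosome 13 whose starts lie 67.3 kb apart. Their log2 fold changes were 2.98 and 0.43. *Insig1* is the SREBP control gene that passed the test. Of the 24 genes, *Hmgcs1* alone has a window with an exact match to TCACCCCAC, a core of a sterol regulatory element. Capitals mark CCAAT (bound by NF-Y), TCACCCCAC (the core of a sterol regulatory element) and AGGAA (a core sequence known to be bound by Ikaros), searched on both strands, so that CCAAT also appears as ATTGG.
Idi2, chr13:8952613-8952912 (+ strand): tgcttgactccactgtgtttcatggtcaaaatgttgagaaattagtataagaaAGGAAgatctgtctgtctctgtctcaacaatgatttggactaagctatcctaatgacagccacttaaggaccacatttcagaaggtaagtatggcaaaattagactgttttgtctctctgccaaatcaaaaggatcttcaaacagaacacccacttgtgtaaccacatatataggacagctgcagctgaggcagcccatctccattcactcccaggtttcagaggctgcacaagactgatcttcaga
Idi1, chr13:8885356-8885655 (+ strand): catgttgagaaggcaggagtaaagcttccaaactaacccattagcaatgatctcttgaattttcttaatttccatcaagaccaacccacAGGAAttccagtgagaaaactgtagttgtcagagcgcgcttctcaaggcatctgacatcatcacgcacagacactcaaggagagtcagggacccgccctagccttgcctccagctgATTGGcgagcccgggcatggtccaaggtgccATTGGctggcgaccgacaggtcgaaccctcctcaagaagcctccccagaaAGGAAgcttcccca
Insig1, chr5:28071162-28071461 (+ strand): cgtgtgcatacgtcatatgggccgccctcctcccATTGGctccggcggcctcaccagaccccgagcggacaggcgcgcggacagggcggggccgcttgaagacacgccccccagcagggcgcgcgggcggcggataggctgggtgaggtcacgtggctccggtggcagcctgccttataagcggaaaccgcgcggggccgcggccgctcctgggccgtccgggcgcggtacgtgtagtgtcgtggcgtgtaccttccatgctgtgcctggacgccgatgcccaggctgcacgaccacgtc
Hmgcs1, chr13:119690101-119690400 (+ strand): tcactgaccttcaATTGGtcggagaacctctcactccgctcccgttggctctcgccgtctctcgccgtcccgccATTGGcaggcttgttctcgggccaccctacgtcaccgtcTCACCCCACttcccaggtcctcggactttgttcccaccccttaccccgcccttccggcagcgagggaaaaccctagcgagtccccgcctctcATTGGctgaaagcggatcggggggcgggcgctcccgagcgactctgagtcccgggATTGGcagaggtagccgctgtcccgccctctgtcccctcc
The *Idi2* window holds AGGAA 1 time and neither CCAAT nor TCACCCCAC. That of *Idi1* holds CCAAT 2 times and AGGAA 2 times. The *Insig1* window holds CCAAT 1 time. In the *Hmgcs1* window, CCAAT occurs 4 times and TCACCCCAC 1 time, the latter at position -137 from the gene's start. Of the 24 genes, 20 have CCAAT in at least 1 window, against 41.1% of all 27025 genes with a window, and 1 has TCACCCCAC, against 0.614%. AGGAA was found for 11 of them, against 69.8% of all genes, and GGGAA, another sequence known to be bound by Ikaros, for 19, against 65.5%. In the printed windows GGGAA is not marked. It occurs 3 times in that of *Hmgcs1*, 1 time in that of *Idi1*, and not in those of *Idi2* and *Insig1*. The direct repeat bound by LXR (AGGTCA, 4 further bases and AGGTCA) was in none of the 24, against 0.0148% of all genes. The 24 genes have 33 windows and the 27025 genes 32851, and a match in at least 1 window is likelier for a gene with more windows. These comparisons were not matched for the number of windows, and the 27025 genes were not limited to measured ones. *Fdps*, *Fdft1*, *Sqle*, *Stard4*, *Abcg1* and *Npc1* have no window in the table. These matches describe exact letters in a short window and are not sites of binding. Variants of these sequences were not searched, so that a gene without a match is not shown to lack such an element.

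The deposited values are log2 expression values made by RMA for 35556 probe sets. The 4 arrays have medians of 7.11 to 7.16, and arrays of a treatment correlated across probe sets at r = 0.996 (EtOH) and 0.994 (4OHT), which describes arrays of a single cell line. Of 15 T-cell marker genes 12 were measured, with means of 10.01 to 13.14. Means were 4.78 to 6.75 for 6 B-cell markers, 6.40 to 7.29 for 4 erythroid, 4.49 to 6.30 for 5 hepatocyte, 5.13 to 8.47 for 9 myeloid and 6.39 to 9.70 for 6 stromal and endothelial markers. Of these markers of other cells, 2 myeloid genes passed the test, *Lyz2* (log2 fold change −1.24) and *Itgam* (0.68), 11.1% of that list in each direction. Of the 12 T-cell genes, *Cd3d* was called lower (−0.94, 8.33%). Among all genes, 1.23% were called higher and 2.99% lower. At an unadjusted p under 0.05 (limma), 6 T-cell genes were lower (50%, against 11.7% of all genes) and 3 higher (25%, against 8.74%). The part of these marker changes in the results below was not tested. In bulk RNA, fewer cells of a kind and less RNA per cell cannot be told apart. *Ikzf1* had mean values of 12.77 with EtOH and 12.84 with 4OHT, and the sources do not say if its probes also detect Ik1-ER mRNA. It is not stated whether arrays of one treatment are from separate cultures, and the p-values then measure only the spread of these samples, possibly a technical one. With 2 arrays a treatment, the smallest p of a two-sided exact permutation test is 0.333, and the precision is limited by this number.

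After 24 h of 4OHT, *Idi2* and *Insig1* mRNA levels were higher and *Abcg1* was lower. Of the 19 measured enzymes of synthesis, 16 had log2 fold changes above 0 (84.2%, against 57.7% of all genes). Among these 19, *Idi2* alone passed the test (5.26%, against 1.23% of all genes called higher). Of the 30 measured genes, 2 were called higher and 1 lower at a Benjamini-Hochberg adjusted p under 0.05 from limma, where 1.23% of all genes were called higher and 2.99% lower (4.23% together). The median log2 fold change of the 30 genes was 0.16, beside 0.03 over all genes. The log2 fold change was above 0 for 23 of them (76.7%, against 57.7% of all genes). Both 4OHT arrays lay above both EtOH arrays for 19 genes (63.3%), as for 32.1% of all genes, and below them for 4 genes (13.3%), as for 24.5% of all genes. With equal array medians the first of these counts was 14, and the share of all genes at that setting was not computed. Some of the 19 genes were separated by small gaps, such as 0.0057 for *Mvk*. An unadjusted p under 0.05 was found for 10 genes that were higher (33.3%, against 8.74% of all genes) and for 2 that were lower (6.67%, against 11.7%).

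The number of called genes depended on the probe sets that entered the fit. With the 21789 probe sets of a single gene symbol alone, limma estimated 8.44 prior degrees of freedom in place of 2.66, and 8 of the 30 genes were called higher and 2 lower, against 5.03% and 8.72% of all genes. In that fit, *Idi1*, *Dhcr7*, *Sc5d*, *Cyp51*, *Hsd17b7* and *Srebf2* were called higher besides *Idi2* and *Insig1*, and *Mylip* was called lower besides *Abcg1*.

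**Figure D1:**
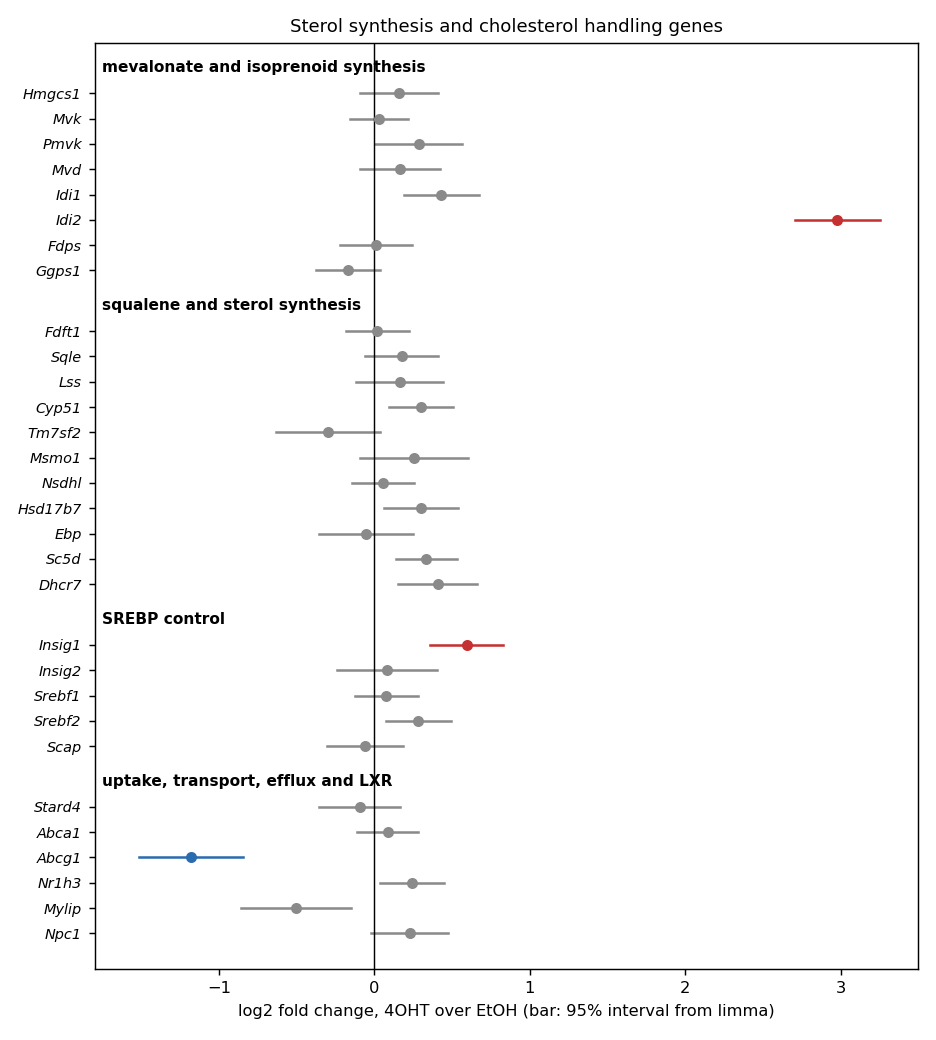
Log2 fold change (4OHT over EtOH, horizontal axis) of the 30 measured genes, grouped by role, with 95% intervals from limma; red genes were called higher, blue lower, and grey ones did not pass the test. *Idi2* stands to the right at 2.98 and *Abcg1* to the left at −1.18, while 16 of the 19 synthesis enzymes (84.2%, against 57.7% of all genes) lie to the right of 0.

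The enzymes of the mevalonate and isoprenoid steps differed most in the isomerases, which interconvert isopentenyl and dimethylallyl diphosphate. *Idi2* had log2 values of 6.20 and 6.33 on the EtOH arrays and of 9.14 and 9.34 on the 4OHT arrays. No other listed gene had its treatments as far apart. Its mean was thus 6.26 ± 0.095 with EtOH and 9.24 ± 0.14 with 4OHT (SD, n = 2 arrays each), a 7.88-fold higher level (log2 fold change 2.98 ± 0.10 SE, limma adjusted p = 0.00488). The EtOH mean lies below the array medians and the values carry no detection calls, so that it is not shown to be above background. On the other *Idi2* probe set the log2 fold change was 3.29 (limma, adjusted p = 0.00417). Without EtOH array 1 or 2, where no gene at all was called, the adjusted p of *Idi2* was 0.108 and 0.122 (limma), at log2 fold changes of 2.91 and 3.05.

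*Idi1*, the isomerase gene that most cells use, was already well expressed in EtOH-treated cells, with values of 11.32 and 11.30, and had values of 11.65 and 11.83 with 4OHT. The treatments did not overlap, and the log2 fold change was 0.43 ± 0.092 SE (limma adjusted p = 0.0991). Its 95% interval of 0.19 to 0.67 lay below that of *Idi2*, which was 2.70 to 3.25. Its other probe set gave the same log2 fold change of 0.43. It is the nearest measured gene to *Idi2* on one side. On the other side lies *Gtpbp4*, at −0.22 (limma adjusted p = 0.314).

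The other 6 measured genes of this group did not pass the test. *Pmvk*, a kinase of the mevalonate steps, had a log2 fold change of 0.29 (95% interval 0.0071 to 0.56). *Hmgcs1* and *Mvd*, the HMG-CoA synthase and the mevalonate diphosphate decarboxylase, had log2 fold changes of 0.16 and 0.17, with both 4OHT arrays above both EtOH arrays. *Mvk*, mevalonate kinase, was at 0.03 (95% interval −0.16 to 0.21) and *Fdps*, farnesyl diphosphate synthase, at 0.01 (−0.22 to 0.24). *Ggps1*, which makes geranylgeranyl diphosphate for protein prenylation and so lies off the route to sterols, had a log2 fold change of −0.17 (−0.38 to 0.034), and its 4OHT arrays were the lower ones without overlap.

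**Figure D2:**
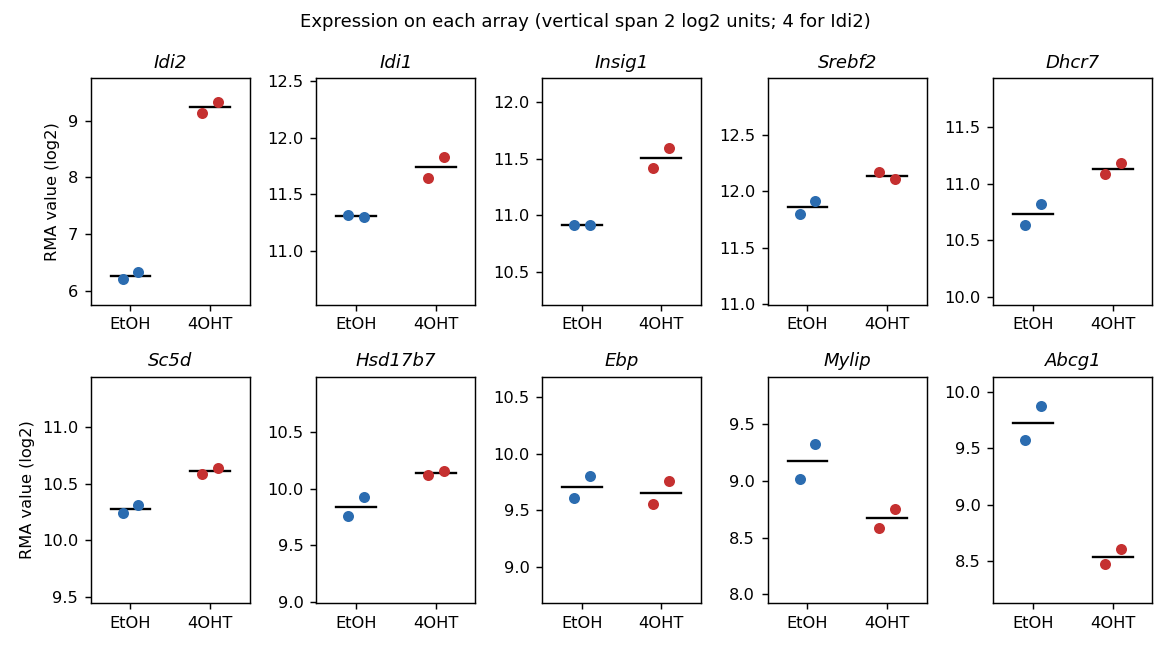
RMA values (log2, vertical axis) of 10 genes on each array, with EtOH in blue, 4OHT in red and black lines for the means of 2 arrays; all panels span 2 log2 units except *Idi2*, which spans 4. The 4OHT arrays lie above the EtOH arrays for *Idi2*, *Idi1*, *Insig1*, *Srebf2*, *Dhcr7*, *Sc5d* and *Hsd17b7*, below them for *Mylip* and *Abcg1*, and among them for *Ebp*.

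None of the 11 enzymes from squalene to cholesterol passed the test, and 9 of the 11 log2 fold changes were above 0 (81.8%, against 57.7% of all genes), with a median of 0.17, beside 0.03 over all genes. The highest were those of *Dhcr7* and *Sc5d*, whose products act on the last double bonds of the sterol ring. *Dhcr7* had values of 10.64 and 10.82 with EtOH and of 11.09 and 11.18 with 4OHT (log2 fold change 0.41 ± 0.096 SE, limma adjusted p = 0.119). *Sc5d* had values of 10.24 and 10.31 with EtOH and of 10.59 and 10.64 with 4OHT (0.33 ± 0.075 SE, limma adjusted p = 0.109). For both genes the treatments did not overlap.

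*Hsd17b7*, a reductase of the C4 demethylation steps, had values of 9.75 and 9.93 with EtOH and of 10.12 and 10.16 with 4OHT (log2 fold change 0.30, limma adjusted p = 0.186). *Cyp51*, the lanosterol demethylase, was also at 0.30 (adjusted p = 0.146). *Msmo1*, the C4 methyl oxidase, had values of 10.88 and 10.85 with EtOH, and of 10.95 and 11.29 with 4OHT. Here the 4OHT arrays differed from each other by more than array 1 differed from the EtOH arrays. *Sqle* and *Lss*, which make and close squalene epoxide, had log2 fold changes of 0.17 and 0.16 (95% intervals −0.063 to 0.41 and −0.12 to 0.44).

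*Fdft1* (squalene synthase) and *Nsdhl* (a C4 decarboxylase) had log2 fold changes of 0.02 and 0.06, with overlapping treatments. *Ebp*, the sterol isomerase, had values of 9.61 and 9.80 with EtOH and of 9.55 and 9.76 with 4OHT. The treatments overlapped, with a log2 fold change of −0.05 (95% interval −0.35 to 0.25). *Tm7sf2*, one of the sterol C14 reductases, lay below the EtOH arrays on both 4OHT arrays (−0.30, limma adjusted p = 0.317). *Lbr*, which encodes a protein of the inner nuclear membrane with the same reductase activity, was at 0.45 (limma adjusted p = 0.0849).

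Among the genes of SREBP control, *Insig1*, which encodes the retention protein and is itself a known SREBP target, was higher. Its values were 10.92 and 10.91 with EtOH and 11.42 and 11.59 with 4OHT, with all 4OHT values above those of EtOH. The means of 10.91 ± 0.0046 and 11.51 ± 0.12 (SD, n = 2 arrays each) differ 1.51-fold (log2 fold change 0.59 ± 0.089 SE, limma adjusted p = 0.0487). This call lies at the threshold: the adjusted p was 0.0573 when the arrays were set to equal medians, 0.0502 when the probe sets of each gene were averaged, and 0.0749 to 0.233 when 1 array was left out, at log2 fold changes of 0.51 to 0.68. The nearest measured genes on either side, *Htr5a* and *En2*, had log2 fold changes of 0.06 and 0.04.

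*Srebf2*, which encodes the SREBP that mainly drives sterol synthesis, had values of 11.80 and 11.91 with EtOH and of 12.17 and 12.11 with 4OHT. The treatments did not overlap (log2 fold change 0.28 ± 0.080 SE, limma adjusted p = 0.168). *Srebf1*, whose products mainly drive fatty acid synthesis, had values of 9.59 and 9.50 with EtOH and of 9.60 and 9.65 with 4OHT (0.08, 95% interval −0.13 to 0.28), a gap between treatments of 0.0073 at its smallest. *Insig2* had values of 9.38 and 9.42 with EtOH and of 9.33 and 9.64 with 4OHT. The 4OHT arrays lay on either side of both EtOH arrays (0.08, 95% interval −0.24 to 0.40). *Scap* had values of 10.69 and 10.85 with EtOH and of 10.77 and 10.65 with 4OHT, with overlapping treatments (−0.06, 95% interval −0.31 to 0.19).

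Of the genes for transport, efflux and the LXR response, *Abcg1* was lower. This gene encodes a half-transporter that passes cholesterol to lipoproteins and is a known LXR target. Its values were 9.57 and 9.87 with EtOH and 8.48 and 8.61 with 4OHT, and the nearest arrays of different treatments were 0.96 apart. The means of 9.72 ± 0.22 and 8.54 ± 0.091 (SD, n = 2 arrays each) differ 2.26-fold (log2 fold change −1.18 ± 0.13 SE, limma adjusted p = 0.0257). Its adjusted p was 0.0755 to 0.147 when any 1 array was left out, at log2 fold changes of −1.33 to −1.03. The nearest measured genes on either side, *Umodl1* and *Tff3*, had log2 fold changes of 0.001 and 0.30 and did not pass the test.

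*Mylip*, the ubiquitin ligase that marks lipoprotein receptors for degradation and is likewise a known LXR target, had values of 9.02 and 9.33 with EtOH and of 8.59 and 8.75 with 4OHT. Both 4OHT arrays lay below both EtOH arrays (log2 fold change −0.50 ± 0.13 SE, limma adjusted p = 0.149). *Abca1*, a further LXR target and exporter, had values of 5.75 to 5.90 on all arrays, below the array medians, with a log2 fold change of 0.08 (95% interval −0.11 to 0.28). *Nr1h3*, which encodes LXRα, was also below the array medians on all arrays (6.68 and 6.77 with EtOH, 6.93 and 7.00 with 4OHT), at a log2 fold change of 0.24 (limma adjusted p = 0.216). *Npc1*, which exports cholesterol from lysosomes, and *Stard4*, a cytosolic sterol carrier, had log2 fold changes of 0.23 and −0.09 (adjusted p = 0.303 and 0.666).

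The listed genes also differed between arrays of one treatment. On 4OHT array 2, 27 of the 30 genes (90.0%) were above 4OHT array 1, against 58.6% of all genes, with a median difference of 0.12, beside 0.03 over all genes. On EtOH array 2, 22 of the 30 (73.3%) were above EtOH array 1, against 45.5% of all genes, with a median difference of 0.083, beside −0.01 over all genes. The median log2 fold change between treatments, 0.16, became 0.25 without 4OHT array 1 and 0.061 without 4OHT array 2. The part of this spread in the fold changes of the enzymes was not tested.

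**Figure D3:**
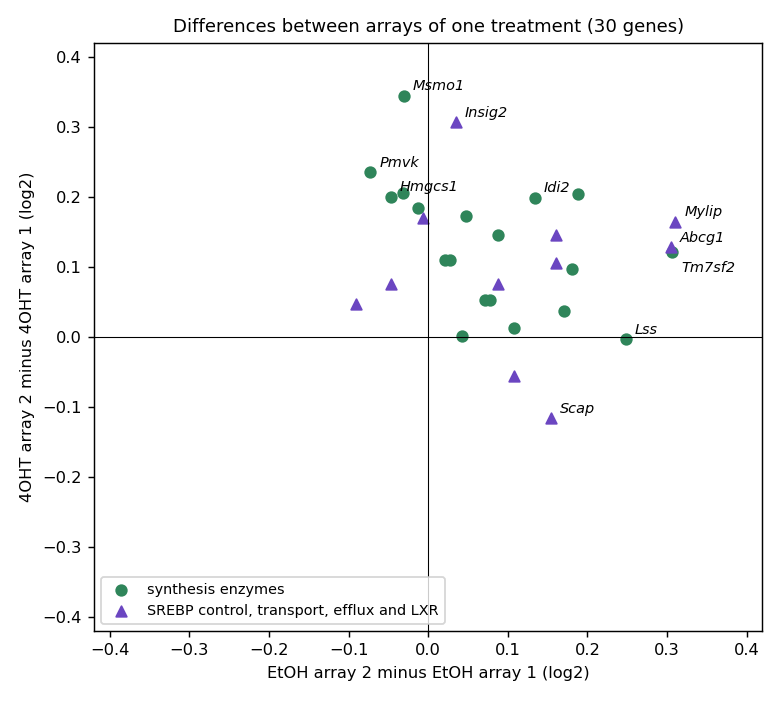
Difference between array 2 and array 1 of EtOH (horizontal axis) and of 4OHT (vertical axis), in log2 units, for each of the 30 genes. Most points lie above the horizontal line, since 27 of 30 genes were higher on 4OHT array 2, and to the right of the vertical line, since 22 of 30 were higher on EtOH array 2.

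The synthesis enzymes can be read beside 84 measured genes of 7 related lists. Of the 19 measured genes of fatty acid synthesis and desaturation, 4 fell and 0 rose at an adjusted p under 0.05 from limma, where 2.99% of all genes were called lower (21.1% of this list). At an unadjusted p under 0.05, 5 were lower (26.3%, against 11.7% of all genes) and 0 higher (against 8.74%). *Scd1*, the stearoyl-CoA desaturase, had values of 11.54 and 11.79 with EtOH and of 10.53 and 10.41 with 4OHT, a 2.29-fold lower level (adjusted p = 0.0203). *Elovl6*, an elongase of saturated fatty acids, was 1.95-fold lower (log2 fold change −0.96, adjusted p = 0.0250), and *Fads2*, a desaturase of polyunsaturated fatty acids, 1.60-fold lower (−0.68, adjusted p = 0.0316). *Gpam*, which starts glycerolipid synthesis, was 1.38-fold lower (−0.47, adjusted p = 0.0496), a call that was lost with a further quantile normalization, an intensity trend or averaged probe sets. The median of this list was −0.04, and *Fasn*, *Acaca* and *Acly*, which carry out the synthesis itself, had log2 fold changes of 0.04, 0.05 and −0.03.

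**Figure D4:**
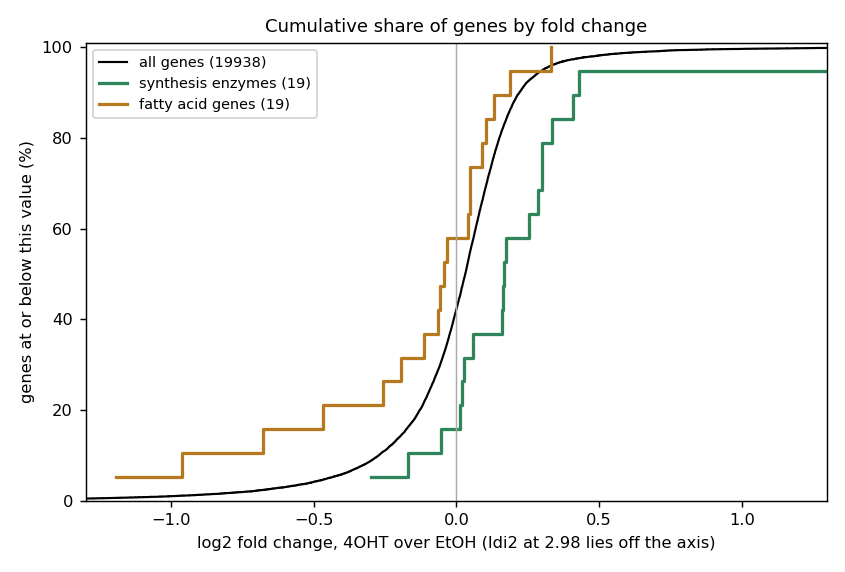
Cumulative share of genes (vertical axis, %) by log2 fold change (4OHT over EtOH, horizontal axis) for all 19938 genes (black), the 19 synthesis enzymes (green) and the 19 fatty acid genes (brown); *Idi2*, at 2.98, lies beyond the axis. The green curve runs to the right of the black one, with a median of 0.17 against 0.03, and the brown curve has a long left end made of *Scd1*, *Elovl6*, *Fads2* and *Gpam*.

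Of 17 genes of sterol transport and storage, *Lipa* alone passed the test (5.88%, against 1.23% of all genes called higher). It encodes lysosomal acid lipase, which frees cholesterol from its esters, and had values of 9.62 and 9.63 with EtOH and of 10.52 and 10.64 with 4OHT, a 1.94-fold higher level (log2 fold change 0.95, limma adjusted p = 0.0166). Of 18 genes for lipoprotein receptors, oxysterols and partners of LXR, 1 was called lower (5.56%, against 2.99% of all genes). This was *Lrp1*, a large endocytic receptor, at a 1.99-fold lower level (−0.99, limma adjusted p = 0.0169). The LXR partners *Rxra*, *Rxrb* and *Rxrg* had log2 fold changes of −0.37, −0.31 and 0.10, and none passed the test. Neither did *Scarb1*, at −0.52 (limma adjusted p = 0.0977), nor *Lpcat3*, at 0.17. At an unadjusted p under 0.05 (limma), 5 genes of this list were lower (27.8%, against 11.7% of all genes) and 0 higher (against 8.74%). Of 6 partners of SREBP processing and sterol sensing, 1 was called lower (16.7%, against 2.99% of all genes). This was *Erlin2*, which encodes a sterol-binding protein of the endoplasmic reticulum, at a 1.46-fold lower level (−0.55, limma adjusted p = 0.0392). The call was lost with a further quantile normalization. None of the 5 sterol enzyme partners, the 16 genes of isoprenoid use and the 3 mitochondrial ketone body enzymes was called by limma. At an unadjusted p under 0.05, 2 of the 5 sterol enzyme partners were higher (against 8.74% of all genes), 3 genes of isoprenoid use were lower (18.8%, against 11.7%), and 0 ketone body enzymes passed in either direction. By the same measure, 3 of the 17 transport and storage genes were higher and 2 lower (17.6% and 11.8%). Among the 6 partners of SREBP processing, 1 was higher and 2 were lower (16.7% and 33.3%). Over the 7 lists, 1 gene rose and 6 fell of 84 (1.19% and 7.14%), beside 1.23% and 2.99% of all genes. Without 4OHT array 1, *Elovl6* and *Lipa* among these 7 genes still passed the test, and without any other single array, or with the replicate block, none of them did.

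**Figure D5:**
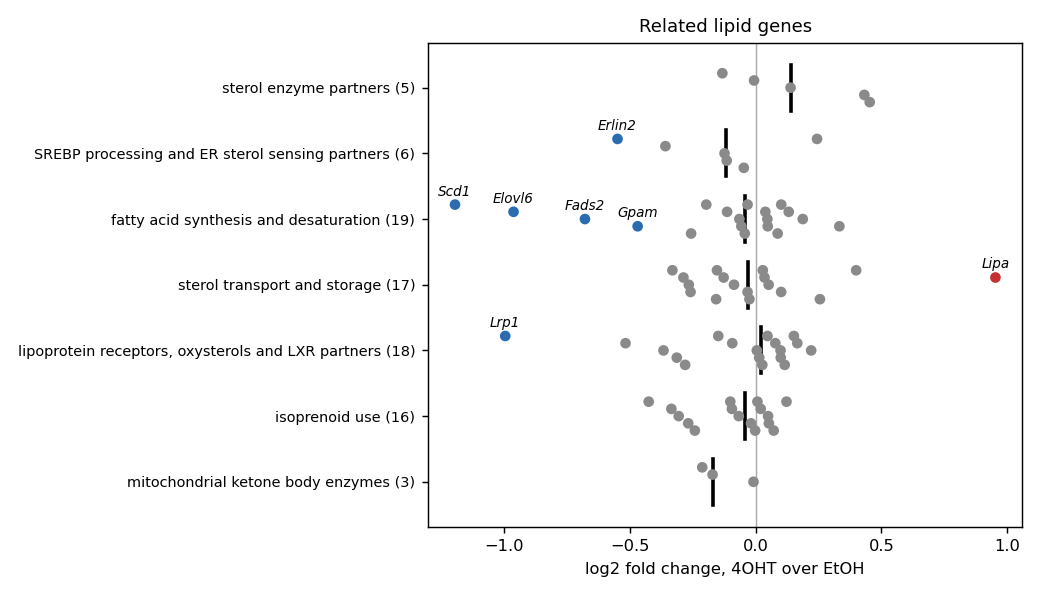
Log2 fold change (4OHT over EtOH, horizontal axis) of the 84 measured genes of 7 related lists, with the number of genes in brackets. Red points were called higher, blue lower and grey not, black lines are list medians, and the called genes are named: *Lipa* on the right at 0.95, and *Scd1*, *Lrp1*, *Elovl6*, *Fads2*, *Erlin2* and *Gpam* on the left.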

How the data were processed

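RNA of ILC87-Ik1-ER cells was hybridised to 4 Affymetrix Mouse Gene ST 1.0 arrays, of which 2 were of cells given EtOH and 2 of cells given 100 nM 4OHT for 24 h, as each label gives it. The values deposited by the authors are on a log2 scale and cover 35556 probe sets. Expression Console 1.1 of Affymetrix and RMA are the tools in the submitters' processing notes. RMA subtracts background, makes the distribution of probe signals equal on all arrays and combines the probes of a set. It therefore hides a change shared by most genes and compresses dim ones. For the probe sets, the genome build was not given in the sources used here.

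All probe sets were fitted in limma 3.58.1 (R 4.3.3; lmFit and eBayes, two-sided, no block or filter, 2 residual degrees of freedom) and adjusted by Benjamini-Hochberg over all of them. Gene symbols came from the array annotation (21789 probe sets with 1 symbol, 1621 with several, 12146 with none), and 21698 were matched to the RefSeq table of GRCm38.p6. The listed genes and the related lists were chosen with earlier results of these data known, so that no test of a list was made. Values on each array were given for called genes, for genes whose treatments did not overlap at an absolute log2 fold change of at least 0.3, and for *Srebf1*, *Srebf2*, *Insig1*, *Insig2*, *Scap*, *Idi1* and *Ebp*; further genes illustrate a group. Of the related lists, called genes were named, and others were added after their values were seen. The scripts were tested on simulated data. Alternatives were a replicate block, 2 other scalings, a minimum mean log2 value of 6, single-symbol probe sets, an intensity trend, mean probe sets, each array left out and an adjusted p under 0.01.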

Additional observations from a re-analysis of the deposited data

How the results depend on the processing

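The main counts were 2 listed genes higher, 1 lower and 7 called in the related lists, where 843 of all genes were called. The same listed genes were called with a further quantile normalization, an intensity trend and a minimum mean of 6. At these settings 5, 8 and 8 related genes were called, and 825, 919 and 1149 of all genes. The counts became 8, 2 and 17 with single-symbol probe sets alone, where the larger number of prior degrees of freedom comes with the leaving out of probe sets that have no or several symbols. In that fit 2741 of all genes were called. With the replicate block the counts became 1, 0 and 0, and at an adjusted p under 0.01 also 1, 0 and 0. Calls were then few among all genes too, at 30 with the block and 73 under 0.01. With equal array medians, and with probe sets averaged within genes, 1 listed gene was called higher, where 927 and 804 of all genes were called. When 1 array was left out, the median log2 fold change of the listed genes was 0.061 to 0.25. The 4OHT arrays then lay above the EtOH arrays for 19 to 22 genes and below them for 4 to 8. With 2 arrays against 1, such separation arises more readily than with 2 against 2, so that these counts cannot be set beside the main ones. Fits without 1 array take the remaining array of its treatment to vary as those of the other treatment do.

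Sample numbers are shared by the treatments, but nothing says that they pair the arrays, and the array 2 minus array 1 differences of the treatments correlated at r = -0.134 over all probe sets. In the fit with the replicate block the adjusted p was 0.0623 for *Abcg1* and 0.12 for *Insig1* (limma). The crossed pairing, chosen after seeing the data, called 1 listed gene higher, 1 lower and 5 related genes, and 535 of all genes. Of the alternatives for single listed genes, 301 kept direction and side of the threshold, 14 lost and 7 gained a call, and 10 changed direction, for 5 genes near 0: *Ebp* was at 7.1e-05 after a further quantile normalization, and *Fdft1* and *Fdps* at −0.0031 and −0.010 with equal array medians. When 1 array was left out, the log2 fold changes ran from −0.16 to 0.049 for *Ebp*, from −0.035 to 0.073 for *Fdft1*, from −0.060 to 0.084 for *Fdps*, from −0.070 to 0.24 for *Insig2* and from −0.14 to 0.018 for *Scap*. *Abca1* has no value where a mean of at least 6 was required. The values carry no detection calls, so that dim genes are not told from background.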
